A study of Mus musculus with 3 samples.

Results

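The 10 genes described here, Zbp1, Ripk1, Ripk3, Mlkl, Casp8, Fadd, Cflar, Tradd, Birc2 and Birc3, code for the core of necroptosis and death receptor signalling. They were given by name, with earlier results of these data known, and all 10 were found among the 55450 mouse genes of the deposited tables. The samples were 3 poly(A)-selected RNA-seq libraries of primary macrophages that came from C57BL/6J bone marrow. The cells had received 100 ng/ml Lipid A, the part of bacterial endotoxin that TLR4 senses, for 12 hours, were then kept without it for 12 hours, and were given the same dose again for 180 minutes before lysis. One free-text label names Lipid A, while the treatment fields name lipoprotein A and class it as a protein; the text below follows the free-text label. Sex and age were not collected, no genetic change is labelled, and the 3 biological replicates share 1 donor record, so the spread between them may be partly technical. The study holds this 1 group with no untreated, singly treated or earlier sample, so no gene can be said to have risen or fallen. What the design allows is the level of each gene, its spread over the replicates, the ratios between genes within a library, and the make-up of each gene's transcripts. These levels are of RNA, and protein was not measured.

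Necroptosis is a lytic, inflammatory form of cell death. RIPK1, ZBP1 or the TLR adaptor TRIF recruits the kinase RIPK3 through a shared interaction motif, the RHIM, and RIPK3 phosphorylates MLKL, which then breaches the plasma membrane. Death receptors of the TNF family, through the adaptors TRADD and FADD, bring the protease caspase-8 to the same platform, where caspase-8 paired with the long form of cFLIP (from Cflar) cleaves RIPK1 and RIPK3 and so holds necroptosis back. The ubiquitin ligases cIAP1 (from Birc2) and cIAP2 (from Birc3) keep RIPK1 in a pro-survival complex, and in macrophages the balance of these proteins is known to set whether TLR4 or TNF signals end in survival, apoptosis or necroptosis.

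Transcripts of Zbp1, Cflar and Mlkl that code for different proteins can be told apart by short stretches, which are shown because the transcript shares below turn on them. They were read from the GENCODE M21 transcripts of the GRCm38 build, and all lie within coding sequence. In the first 4 lines and in the last one, capitals mark the 15 bases after the point where the transcripts part. In the Mlkl-201 line, capitals mark the 24 bases (8 codons) that Mlkl-201 has and Mlkl-202 lacks.
Zbp1-201: aaggccaagacatagCTCATTCTGGAGTCA
Zbp1-202: aaggccaagacatagTCTTGCCATGTAGCC
Cflar-205: aagtataactcaaggCTCCAGAATGGGCGA
Cflar-204: aagtataactcaaggGTGAGTCTGGAGCCA
Mlkl-201: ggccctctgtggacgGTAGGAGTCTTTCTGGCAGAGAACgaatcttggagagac
Mlkl-202: ggccctctgtggacgGAATCTTGGAGAGAC
Each of these stretches occurs in the transcripts of 1 gene only, but not always in 1 transcript. The Zbp1-201 stretch is also in Zbp1-203, and the Mlkl-202 stretch is also in Mlkl-203. The Cflar-205 stretch is also in Cflar-201, Cflar-206 and Cflar-209. Zbp1-201 and Zbp1-202 share the end of exon 3, after which the long transcript goes on to its exon 4 and the short one to a last exon of its own. Cflar-205 splices exon 5 to exon 6, whereas Cflar-204 reads on past the point where exon 5 of Cflar-205 ends.

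The libraries held 23418690, 36863611 and 37728915 expected counts (replicates 1, 2 and 3), so that 3 counts, taken as the floor, came to 0.128, 0.0815 and 0.0796 CPM, the counts scaled to the library total. Expected counts are reads given to genes and transcripts, with ambiguous reads divided by estimate. Each sample had one quantification made from alignments, used unless stated otherwise, and another made directly from FASTQ files. The smallest count of any of the 10 genes was 305 (Ripk3, replicate 1). All 15 macrophage markers on the list were at 1 TPM or more in every replicate, with a summed level of 25994.5 to 32419 TPM. TPM is a transcript level scaled to transcript length and library size. Of 10 neutrophil markers 2 reached 1 TPM in every replicate, and their summed level was 12.5, 108 and 11.1 TPM, the replicate 2 value resting mainly on S100a8 and S100a9, with Ly6g at 0 counts throughout. Summed levels were 4.16 to 5.38 TPM for 8 dendritic cell markers, 0.49 to 2.38 TPM for 8 T and NK cell markers, 1.78 to 4.39 TPM for 6 B cell markers, 0.83 to 2.98 TPM for 7 erythroid and megakaryocyte markers, and 10.5 to 24.9 TPM for 8 stromal and endothelial markers, where Kdr led. The part of these other cells in the levels below was not tested, and fewer cells of a type and less RNA per cell cannot be told apart in bulk RNA.

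All 10 genes were expressed, over a wide range. Each was at 1 TPM or more in all 3 replicates, a level reached by 44.4% of 21951 protein-coding genes. Of the 10, 4 reached 100 TPM on average, as did 5.87% of protein-coding genes and 13.2% of those at 1 TPM or more in every replicate. Without replicate 1 the count was 3, since the mean of Mlkl was then 99.4 TPM. The median of the 10 mean levels was 61.5 TPM, beside 18.1 TPM over the 9741 protein-coding genes at 1 TPM or more throughout and 0.353 TPM over all protein-coding genes. The order of the means ran Zbp1, Cflar, Birc3, Mlkl, Casp8, Ripk1, Birc2, Tradd, Ripk3, Fadd. In this order the ranges of neighbours did not overlap, except for Tradd and Ripk3.

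**Figure D1:**
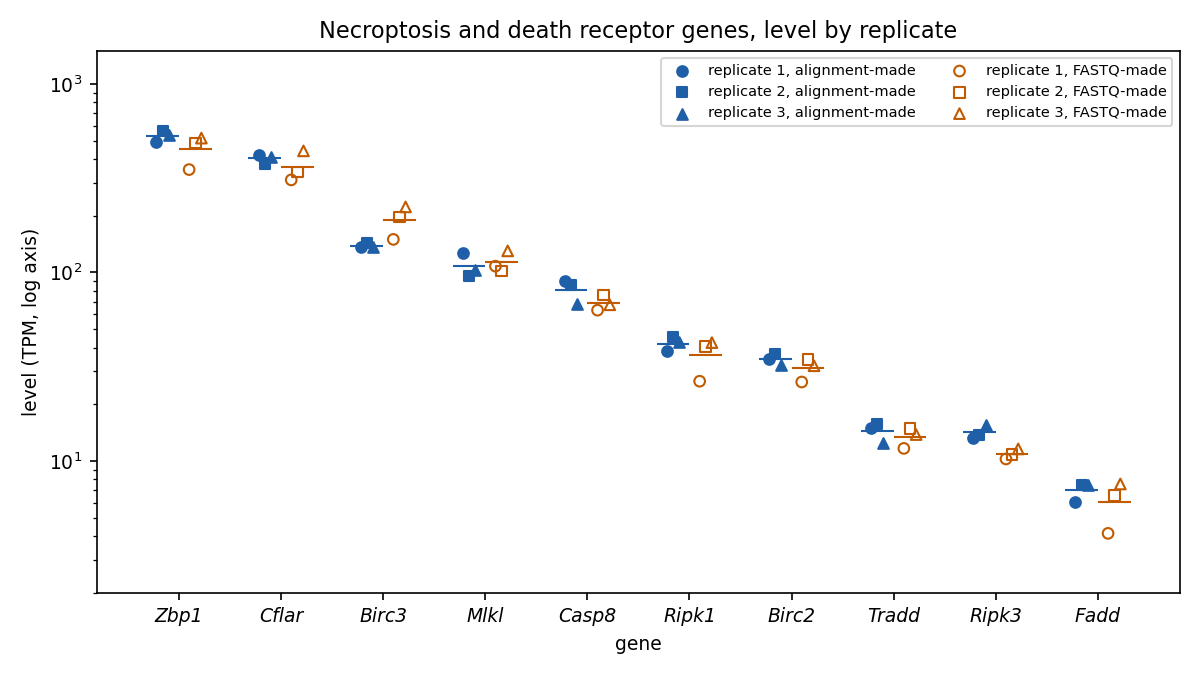
Level of each of the 10 genes in TPM (log axis) in each replicate, with filled blue symbols for the tables made from alignments, open orange symbols for those made from FASTQ files, and a line at each mean. Zbp1 and Cflar stood at the top in all 3 replicates (376 to 566 TPM in the alignment-made tables) and Fadd at the bottom (6.03 to 7.49 TPM).

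Zbp1, the sensor of left-handed (Z-form) RNA and DNA that is itself induced by interferon, was the most abundant of the 10. It lies on the minus strand of chromosome 2 (chr2:173206612-173218923, GRCm38). Its level was 494.5, 566 and 534 TPM in replicates 1, 2 and 3, a mean of 531 ± 35.6 TPM (SD, n = 3) from 8542, 15670 and 14075 expected counts. This put Zbp1 at the 98.8th percentile of protein-coding genes, and at the 97.3rd of those at 1 TPM or more throughout. Replicate 1 was the lowest, and the coefficient of variation was 6.70%. By FASTQ-made TPM the level was 351, 487 and 516, again lowest in replicate 1, with a coefficient of variation of 19.5%. The 3 protein-coding genes whose levels were most like those of Zbp1, by Euclidean distance in log2(TPM + 1) over the 3 samples, were Efhd2 (distance 0.0496, mean 523 TPM), Rpl23 (0.0833, 549 TPM) and Rtp4 (0.106, 523 TPM).

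Zbp1 has 2 coding transcripts, and which of them led depended on the scale. Zbp1-201 has 8 exons and codes for 411 residues, while Zbp1-202 has 4 exons and codes for 187. They share 460 coding bases, and 773 coding bases were found in Zbp1-201 only and 101 in Zbp1-202 only. By TPM, Zbp1-202 held 56.4, 55.4 and 58.9% of the gene (56.9 ± 1.81%, SD, n = 3) and Zbp1-201 held 40.4, 42.1 and 40.0% (40.9 ± 1.11%). The short transcript was ahead in every replicate, at 1.39 ± 0.0781 times the long one. Expected counts are not divided by transcript length (770 bases for Zbp1-202, 1989 for Zbp1-201). By counts the short transcript held 26.8 ± 1.52% and the long one 66.7 ± 1.97%. Dividing the counts by these full lengths gives a smaller lead than TPM in replicates 1 and 3, and none in replicate 2. The lead of the short transcript thus depends on the length adjustment behind the deposited TPM. The FASTQ-made tables gave the short transcript 55.3 ± 2.73% of the gene's TPM. The short transcript rested on 2267, 3982 and 4001 expected counts with a deposited posterior SD of 34.3, 46.3 and 44.5 counts, so the uncertainty of assigning reads within this annotation was small beside these counts. The remaining transcript, Zbp1-203, is annotated as a retained intron and held 2.26 ± 1.07% by TPM.

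**Figure D2:**
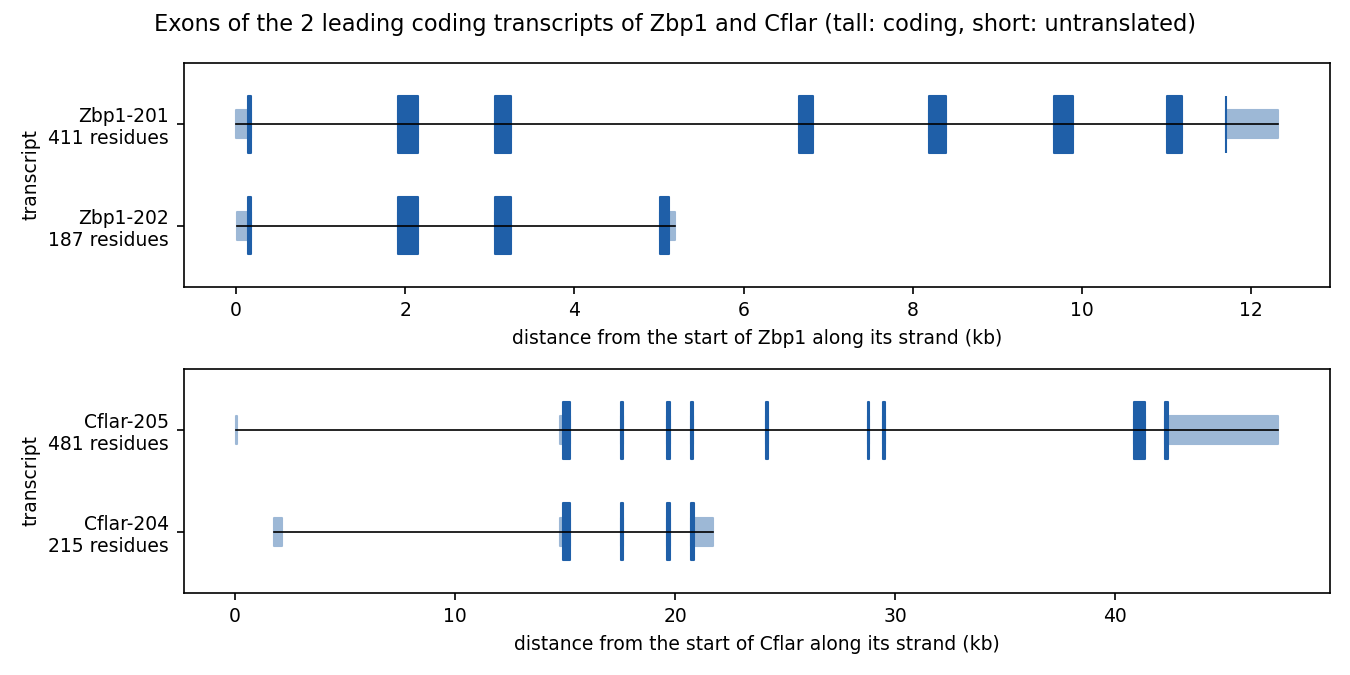
Exons of Zbp1-201 and Zbp1-202 (top) and of Cflar-205 and Cflar-204 (bottom) in kb from the start of each gene along its strand, with coding parts tall and dark and untranslated parts low and light. In both pairs the first coding exons are shared and the shorter transcript ends within the first part of the gene.

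RNA for the kinases downstream was less abundant. Ripk1, the kinase and scaffold of death receptor complexes, lies on the plus strand of chromosome 13 (chr13:34002363-34037147). It measured 38.2, 45.3 and 42.6 TPM (42.0 ± 3.56 TPM, SD, n = 3), with replicate 1 the lowest. Its leading transcripts, Ripk1-201 (86.2% of the TPM) and Ripk1-203 (13.1%), code for the same length of 656 residues and together held 99.4% of the gene. Ripk1 overlaps Serpinb6a, which is itself at 297 to 403 TPM, and 2 processed pseudogenes, with 1 of these 3 genes on its own strand. The strand used in counting is not given in the sources used here, so the share of reads from overlapping genes was not tested.

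Ripk3, the kinase on which the necroptotic routes meet, was 1 of the 3 least abundant genes. It lies on the minus strand of chromosome 14 (chr14:55784995-55788865) and overlaps no annotated gene. Its level was 13.3, 13.8 and 15.6 TPM (14.2 ± 1.20 TPM) from 305, 533 and 529 expected counts, with replicate 3 the highest. Ripk3 still stood at the 74.9th percentile of all protein-coding genes, but at the 43.4th of those at 1 TPM or more throughout. Ripk3-201, which codes for 486 residues, held 82.3 ± 6.78% of the TPM and 94.8 ± 0.888% of the counts. Its own level was 11.1, 12.2 and 11.7 TPM, highest in replicate 2. A short retained-intron transcript, Ripk3-206, held 5.38, 8.60 and 22.9% of the TPM, on 2.53, 6.34 and 18.7 expected counts with posterior SDs of 3.81, 3.79 and 5.94 counts. Among these alignment-made values replicate 3 was the highest, while the count in replicate 1 is below its own posterior SD and below the floor of 3 counts. By FASTQ-made TPM Ripk3-206 held 8.70, 0 and 0% in replicates 1, 2 and 3, so its order over the replicates was not kept.

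Mlkl, the executioner that RIPK3 phosphorylates, was far above Ripk3. It lies on the minus strand of chromosome 8 (chr8:111311797-111338177). Its level was 127, 95.5 and 103 TPM (109 ± 16.3 TPM) from 3434, 4157 and 4599 expected counts. Replicate 1 was the highest, and the coefficient of variation, 15.1%, was the largest of the 10 genes on this scale. By FASTQ-made TPM the level was 108, 102 and 130, highest in replicate 3. The coefficient of variation was then 13.2%, and Fadd had the largest, 28.9%. Nearly all of the alignment-made Mlkl TPM came from 2 transcripts whose coding sequences differ by the 24 bases printed above. Mlkl-202 (464 residues) held 92.3 ± 1.55% of the TPM and Mlkl-201 (472 residues) 6.57 ± 1.81%, a ratio of 20.9, 12.2 and 11.9. In the FASTQ-made tables the ratio was 8.25 ± 0.953, and Mlkl-204, a fragment with an incomplete coding sequence that was at 0 in the alignment-made tables, held 15.1% of the TPM.

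Within each library, then, the 3 genes of the terminal route stood in the order Zbp1, Mlkl, Ripk3. Mlkl was 9.52, 6.93 and 6.63 times Ripk3 by TPM (log2 ratio 2.92 ± 0.29, SD, n = 3), and Zbp1 was 37.1, 41.0 and 34.2 times Ripk3 (5.22 ± 0.13). Zbp1 was 3.90, 5.93 and 5.16 times Mlkl (2.30 ± 0.31). Ripk3 was 0.349, 0.304 and 0.367 times Ripk1 (-1.56 ± 0.14). Each of these ratios was on the same side of 1 in all 3 replicates. An exact two-sided sign-flip permutation test over 3 replicates gave p = 0.25 for each of the 10 ratios computed (0.25 after Benjamini-Hochberg adjustment), which is the smallest value this design allows.

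**Figure D3:**
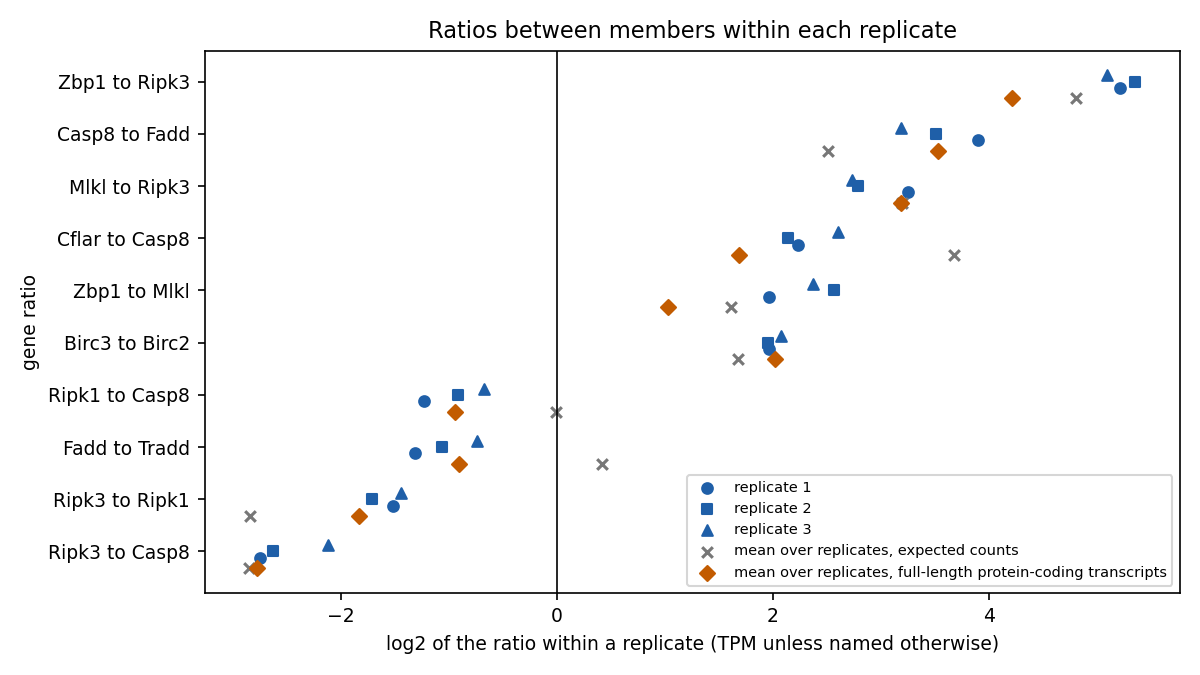
The log2 ratio of 10 pairs of genes within each replicate by TPM (blue), with the mean over replicates by expected counts (grey crosses) and by full-length protein-coding transcripts alone (orange diamonds). By TPM the 3 replicates of every pair lie on one side of 0, while Fadd to Tradd by expected counts lies on the other side.

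On the caspase-8 branch, RNA for the inhibitor was more abundant than RNA for the protease and the adaptors. Casp8 codes for the apical protease of death receptors and lies on the plus strand of chromosome 1 (chr1:58795374-58847503). It measured 89.8, 85.4 and 67.9 TPM (81.0 ± 11.6 TPM), with replicate 3 the lowest. In the FASTQ-made tables it measured 63.1, 75.9 and 67.4 TPM, with replicate 1 the lowest. Casp8-202 (65.2%) and Casp8-201 (25.8%) both code for 480 residues and together held 91.0 ± 0.147% of the TPM. Transcripts coding for 500 residues, mainly Casp8-203 (8.72%), held the other 9.02 ± 0.147%. By FASTQ-made TPM this longer form held 21.7 ± 2.82%. Of the 31-base words of Casp8, 8.36% also occur in transcripts of other genes on the same strand, most in Gm20257 at 1.34 to 2.69 TPM.

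Cflar, which codes for the caspase-8 relative cFLIP, lies 36489 bases before Casp8 on the same strand (chr1:58711508-58758884), with 1 annotated gene, Gm3841, between them. Its level was 422, 376 and 411 TPM (403 ± 23.8 TPM) from 30202, 46578 and 48536 expected counts, at the 98.4th percentile of protein-coding genes. Replicate 2 was the lowest, and the coefficient of variation was 5.92%. By FASTQ-made TPM replicate 1 was the lowest, and the coefficient of variation was 18.9%. Of its 31-base words, 9.26% also occur in transcripts of other genes, most in Gm9845, which held 97, 51 and 95 counts. Cflar was 4.70, 4.40 and 6.06 times Casp8 within each library (log2 ratio 2.32 ± 0.24).

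Cflar is known to make a long form with a caspase-like domain and short forms with death effector domains alone. Of its 13 annotated transcripts 2 held at least 5% of the TPM. Cflar-205 codes for 481 residues and held 62.1, 68.7 and 61.8% (64.2 ± 3.89%). Cflar-204 codes for 215 residues and held 24.5, 20.6 and 28.7% (24.6 ± 4.06%). They share 612 coding bases, with 831 found in Cflar-205 only and 33 in Cflar-204 only, the last being the read-through that the printed stretch enters. Cflar-205 was 2.53, 3.33 and 2.15 times Cflar-204 by TPM, highest in replicate 2, and 9.69 ± 2.19 times by expected counts, which are not divided by length (6572 against 2010 bases). In both Zbp1 and Cflar a short coding transcript thus held a sizeable part of the TPM, but in Cflar the long transcript led on both scales. Transcripts with a non-coding biotype held 11.2 ± 1.97% of the Cflar TPM and 2.40 ± 0.660% of its counts.

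**Figure D4:**
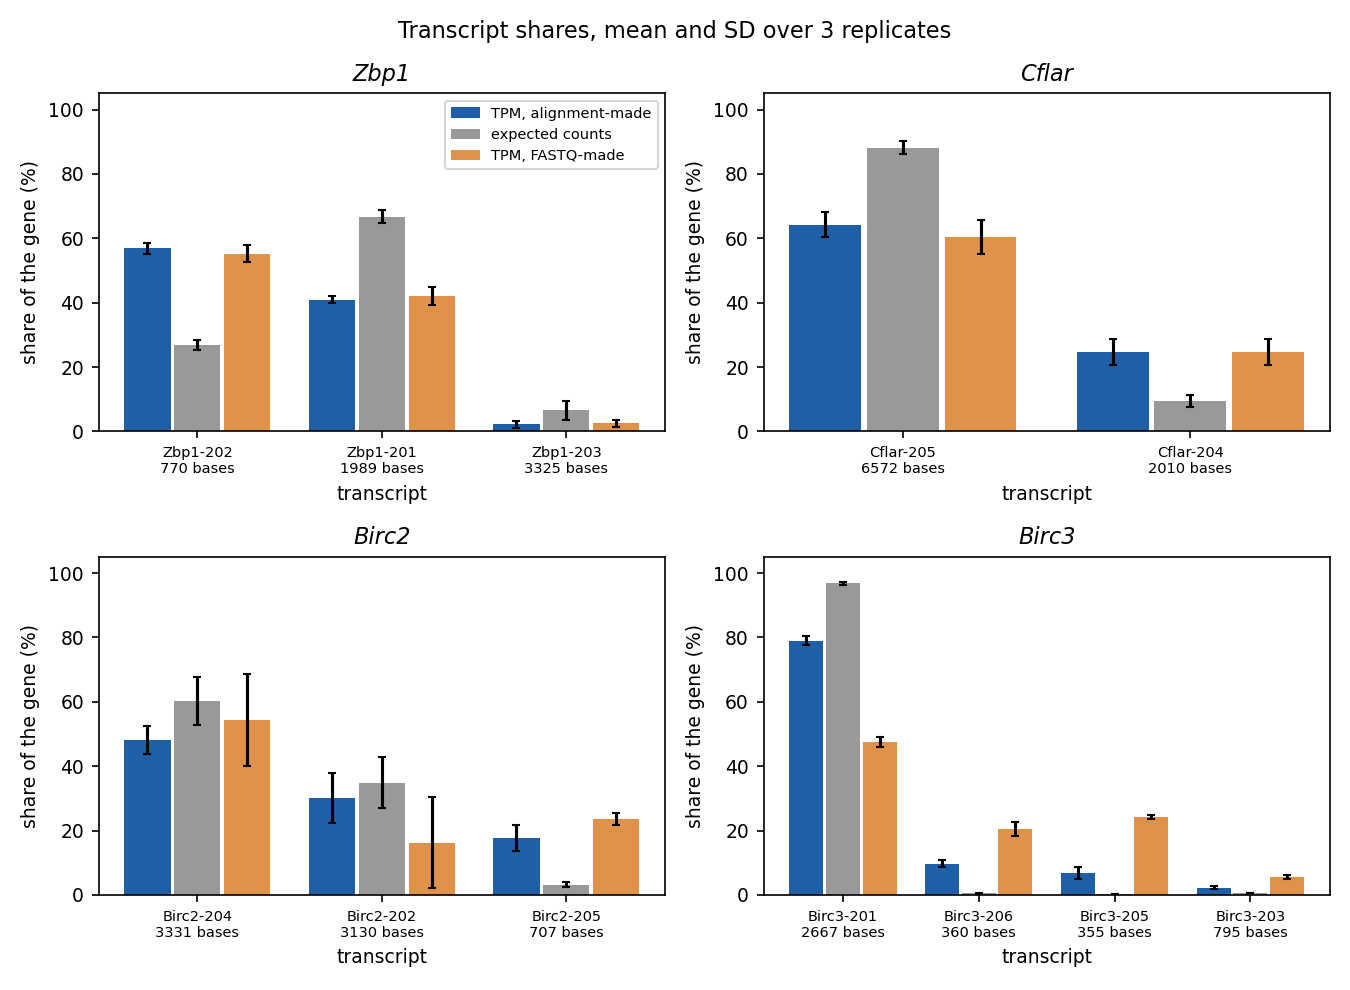
Share of each gene held by its transcripts (those with at least 5% on some scale) for Zbp1, Cflar, Birc2 and Birc3, with bars for the mean and error bars for the SD over 3 replicates. Bars are given for TPM from alignments (blue), expected counts (grey) and TPM from FASTQ files (orange); the leading Zbp1 transcript by TPM, Zbp1-202 at 56.9%, was behind Zbp1-201 by counts, at 26.8%.

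The adaptor genes were at the low end. Fadd codes for the adaptor that links death receptors to caspase-8 and lies on the minus strand of chromosome 7 (chr7:144577318-144582463). It measured 6.03, 7.49 and 7.47 TPM (7.0 ± 0.837 TPM), lowest in replicate 1, and all of it came from Fadd-201, its 1 annotated transcript, which codes for 205 residues. An antisense gene, Faddos, overlaps Fadd and held 1, 0 and 0 counts. Tradd codes for the adaptor of TNF receptor 1 and lies on the minus strand of chromosome 8 (chr8:105258286-105264609). It measured 15.02, 15.7 and 12.5 TPM (14.4 ± 1.67 TPM), lowest in replicate 3 (in replicate 1 by FASTQ-made TPM). Its level overlapped that of Ripk3, being above it in 2 of 3 replicates. Tradd-201 alone measured 14.6, 12.9 and 11.9 TPM, above Ripk3-201 in each replicate (11.1, 12.2 and 11.7 TPM). Casp8 was 14.9, 11.4 and 9.08 times Fadd by TPM (log2 ratio 3.53 ± 0.36). Fadd was 0.401, 0.478 and 0.597 times Tradd by TPM (-1.04 ± 0.29), while by expected counts the order turned (log2 0.42). Fadd-201 is 3903 bases long and Tradd-201 is 1689.

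Set against Casp8, the RNA of both RIP kinases was lower. Ripk1 was 0.425, 0.530 and 0.627 times Casp8 by TPM (log2 ratio -0.94 ± 0.28), and Ripk3 was 0.148, 0.161 and 0.230 times Casp8 (-2.50 ± 0.34). Both ratios were closest to 1 in replicate 3, where Casp8 was lowest. By expected counts the ratio of Ripk1 to Casp8 was near 1 (log2 -0.01).

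The genes of the paralogous ubiquitin ligases cIAP1 and cIAP2 differed in RNA level. Birc2 (chr9:7818227-7837064) and Birc3 (chr9:7848699-7873186) are neighbours on the minus strand of chromosome 9, 11634 bases apart with 0 genes between. Birc3, a well-known NF-κB target, measured 136, 143 and 137 TPM (138.5 ± 3.77 TPM), with a coefficient of variation of 2.72%, the smallest of the 10 on this scale. By FASTQ-made TPM it measured 149.8, 197 and 223, with a coefficient of variation of 19.5%, and Ripk3 had the smallest, 6.18%. Birc2 measured 34.8, 36.8 and 32.4 TPM (34.6 ± 2.21 TPM), with a coefficient of variation of 6.37%. Birc3 was 3.91, 3.88 and 4.22 times Birc2 within each library (log2 ratio 2.00 ± 0.07). Its SD was the smallest of the 10 ratios on this scale, while by FASTQ-made TPM it was 0.17 and that of Mlkl to Ripk3 was the smallest, 0.13. The annotated transcripts of Birc2 and Birc3 have 2.03% and 1.84% of their 31-base words in common with each other. Birc3 shares 11.3% of its words with transcripts of other genes on the same strand, most with the pseudogene Gm7019, which held 1, 2 and 7 counts.

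In both genes short non-coding transcripts held a larger share by TPM than by counts. Birc3-201, which codes for 602 residues, held 78.9 ± 1.38% of the Birc3 TPM and 96.8 ± 0.430% of its counts. Birc3-206 (360 bases) and Birc3-205 (355 bases), both annotated as processed transcripts, held 9.63% and 6.80% of the TPM on 27 to 36 and 13 to 29 expected counts. In the FASTQ-made tables these 2 held 20.6% and 24.2%, Birc3-201 held 47.4%, and the level of the whole gene was 190 TPM. For Birc2, Birc2-204 (48.1%) and Birc2-202 (30.1%) code for the same 612 residues and held 78.1 ± 3.51% together, and the processed transcript Birc2-205 held 17.7 ± 4.0% of the TPM and 3.13% of the counts.

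Because short transcripts weigh so differently on the 2 scales, the levels were also summed over transcripts that code for at least 90% of the longest complete protein of the gene, a rule set after the transcript shares were seen. On this scale Cflar (258 ± 4.09 TPM) stood above Zbp1 (217 ± 19.4 TPM), by 1.31, 1.09 and 1.19 times, whereas over all transcripts Zbp1 was 1.17, 1.5 and 1.30 times Cflar. Birc3 (109 ± 3.13 TPM) and Mlkl (107 ± 15.9 TPM) came next, and their ranges overlapped. Casp8 (81.0 TPM), Ripk1 (41.8), Birc2 (27.1), Tradd (13.1), Ripk3 (11.7) and Fadd (7.0) kept their order. The log2 ratio of Zbp1 to Ripk3 was 4.21 and that of Cflar to Casp8 1.68 for full-length transcripts, both in the same direction as before.

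The spread of the 10 genes between replicates differed between the quantifications. By alignment-made TPM their median coefficient of variation was 8.45%, beside 12.6% over the 9741 protein-coding genes at 1 TPM or more throughout and 11.5% over the 7065 with a mean within the same range of levels. By FASTQ-made TPM it was 16.4%, with a range of 6.18 to 28.9%, beside 19.8% over 9705 protein-coding genes. Whether any gene varied more than others of like abundance was asked with edgeR's quasi-likelihood fit on rounded expected counts, as a one-sided F test with Benjamini-Hochberg adjustment. It called 0 of the 12018 genes tested (0%) and 0 of these 10, with 628 genes and 0 of the 10 at an unadjusted p under 0.05. The prior was fitted to the spread of these same genes, so a number near 628 follows largely from the test itself. That number does not bear on whether any gene differs. With 3 replicates and 4.14 prior degrees of freedom, only a very large excess could have been called. The 0 calls therefore do not show that the spread was even. The adjusted p of the 10 genes was 0.995 to 0.999, and the lowest unadjusted p, 0.25, was that of Mlkl. After scaling of the counts, Mlkl was highest in replicate 1 (0.24 above its mean on the log2 scale) and Casp8 was lowest in replicate 3 (-0.24). Of the 10 genes, 9 were lowest in replicate 1 by FASTQ-made TPM, as were 74.0% of the 9705 protein-coding genes at 1 TPM or more on that scale. By alignment-made TPM the count was 5 of 10, and the share 39.4%.

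Upstream of the 10 genes, the TNF system was represented on both sides. Of 13 ligands and receptors, 10 were at 1 TPM or more in every replicate, and the means of 4 reached 100 TPM. Tnf, the ligand that engages the TRADD and RIPK1 complex, measured 1271, 876 and 802 TPM (983 ± 252 TPM), highest in replicate 1. Tnfrsf1b, its second receptor, measured 884 ± 59.1 TPM, and Ifnar2, a chain of the type I interferon receptor, 194 ± 16.2 TPM. Tnfrsf1a, which codes for TNF receptor 1, measured 117 ± 10.9 TPM, and the death receptor gene Fas 40.5 ± 4.82 TPM. The death ligand gene Fasl and the death receptor gene Tnfrsf25 had 0 counts in all 3 replicates, which allows up to the floor of 3 counts in each. Tnfrsf10b, the TRAIL receptor of the mouse, was at 0.99, 0.45 and 0.68 TPM.

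RNA for the partners of the complexes was detected in every case. Among 14 genes of the TNF receptor complex and its ubiquitin enzymes, 14 were at 1 TPM or more in every replicate, led by Traf1 (255 ± 54.4 TPM), Tnip1 (247 ± 29.6 TPM) and Tnfaip3 (173 ± 32.3 TPM), the last coding for the ubiquitin-editing enzyme A20. The lowest were Traf5 (12.3 ± 3.14 TPM) and Spata2 (12.4 ± 0.610 TPM). Of the 11 kinases and adaptors that form the checkpoint on RIPK1, 11 passed 1 TPM, led by Mapkapk2 (416 ± 77.3 TPM), Ikbke (321 ± 78.4 TPM) and Tank (193 ± 35.4 TPM), with Tab1 (4.22 ± 0.639 TPM) and Tab3 (4.64 ± 0.838 TPM) the lowest. The 9 genes of apoptosis execution analysed here all passed, from Bak1 (172 ± 16.4 TPM), Bax (122 ± 8.71 TPM) and Cycs (67.4 ± 5.52 TPM) down to Casp9 (13.9 ± 2.33 TPM) and Casp6 (12.5 ± 0.905 TPM).

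The list of necroptosis regulators, which holds chaperones, phosphatases, ubiquitin ligases and membrane repair genes, had the highest median of the 5 pathway lists. All 14 of these genes passed 1 TPM, 8 averaged 100 TPM or more, and the median of their means was 111 TPM, beside 61.5 TPM for the 10 genes themselves. Hsp90ab1, a chaperone of the kinases, measured 653 ± 8.67 TPM. Chmp4b (470 ± 26.96 TPM) and Chmp2a (225 ± 13.3 TPM) code for ESCRT-III subunits that repair the membrane pierced by MLKL. Flot2 (29.7 ± 3.59 TPM) and Pgam5 (16.6 ± 1.56 TPM) were the lowest. Medians of the other lists were 40.5 TPM for ligands and receptors, 46.3 TPM for the TNF receptor complex, 67.7 TPM for the checkpoint kinases and 42.3 TPM for apoptosis execution. No difference between lists was tested.

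**Figure D5:**
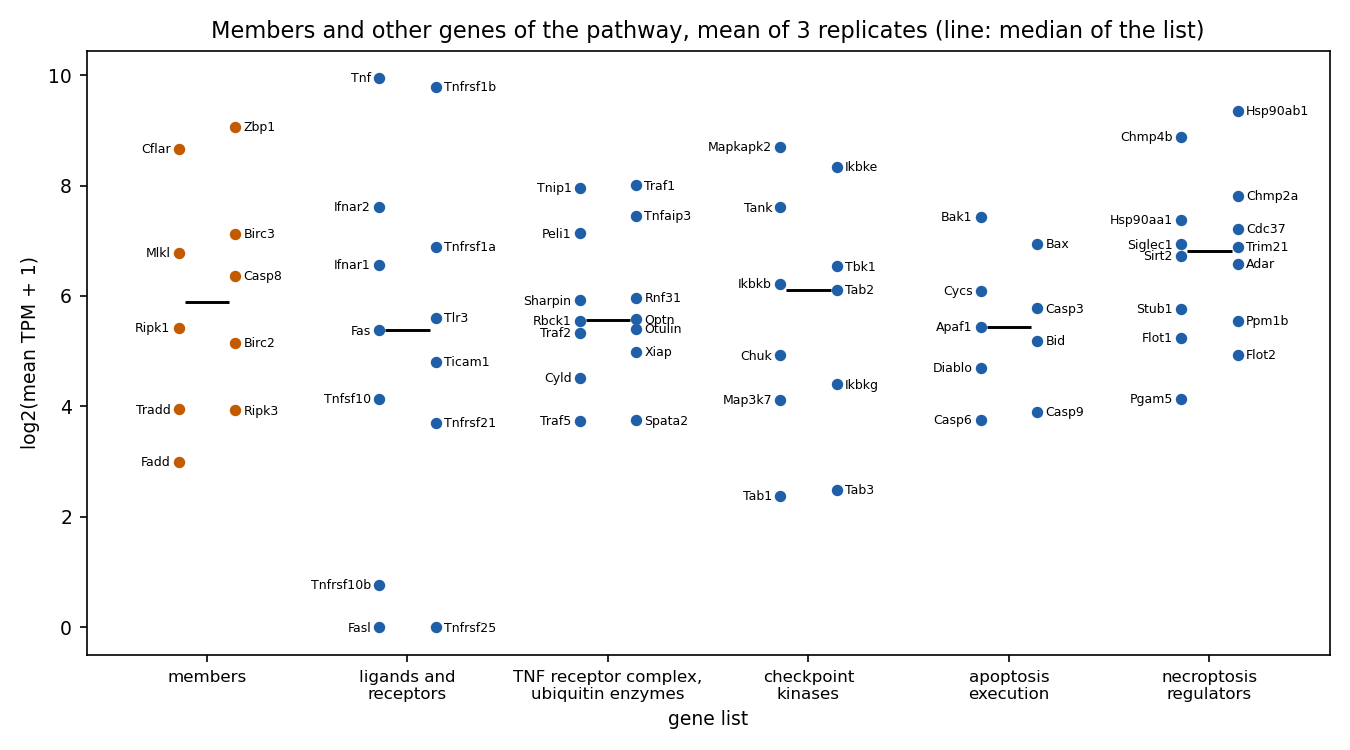
Mean level over 3 replicates, as log2(TPM + 1), of the 10 genes (orange) and of the genes on 5 lists of the surrounding pathway (blue), with a short line at the median of each list. The points at 0 are Fasl and Tnfrsf25, which had 0 counts in all replicates, and Tnf and Tnfrsf1b are the highest.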

How the data were processed

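Poly(A) RNA of 3 macrophage samples of 1 group was sequenced, with a fragment size range of 250-400 in the labels. Per the file headers and accompanying notes, reads were aligned to mm10 (GRCm38) with the M21 annotation, and the authors deposited gene and transcript tables with expected counts, TPM and, for each transcript, its percent of the gene (IsoPct, a share of TPM), together with the posterior SD of each count. A further transcript table per sample was made from FASTQ files, with estimated counts and TPM deposited. The programs, their versions and the counting strand were not given in the sources used here.

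Of 81881 entries per gene table, 55450 matched GENCODE M21 identifiers (21951 protein-coding). Entries outside mouse genes held 0.194, 0.124 and 0.125% of the expected counts and stayed out of library sizes. Expected counts were rounded and fitted without covariates in edgeR 4.0.16 (R 4.3.3, filterByExpr, TMM factors of 0.982, 1.03 and 0.992). The residual quasi-dispersion of each gene was set against its trended prior, and the script was tested on simulated data. Levels and ratios are of deposited TPM with no pseudocount, in Python 3.11.15. FASTQ-made values were summed per gene. Sequence words had 31 bases. The counts give precision within a library. The sign-flip p is 0.25 whenever all 3 replicates lie on one side, whatever their spread. The F test sets the spread of a gene between these samples against a prior fitted over the tested genes. Both speak only of these samples.

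The members and the lists were chosen with earlier results of these data known. One gene of the apoptosis execution list is not reported here. All 10 genes are named. Of each other pathway list the 3 highest and 2 lowest in mean TPM and those below 1 TPM throughout are named. Of transcripts, those with a mean share of at least 5% are named. Others (Zbp1-203, Mlkl-204, transcripts sharing a printed stretch, Tnfrsf1a, Fas, marker genes, overlapping genes) were named after their values were seen. Alternatives were the FASTQ-made tables, expected counts, log2(TPM + 1) for the ratios, TPM over nuclear protein-coding genes and no filter. Others were DESeq2 1.42.0 size factors and leaving out each replicate, and full-length transcripts were added after seeing the data. Protein sequences were not used here.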

Additional observations from a re-analysis of the deposited data

How the results depend on the processing

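Of 70 alternative values of the 10 ratios, 52 stayed within 1 SD and 1 changed sign. The 70 include leave-one-out means, which with 3 replicates cannot move by 1 SD, and log2(TPM + 1), which differs little from TPM. All of these count among the 52, so that number overstates how stable the ratios are. By expected counts the mean log2 ratio of Fadd to Tradd turned to 0.42, and that of Mlkl to Ripk3 stayed within 1 SD, at 3.19. The others were -2.84 for Ripk3 to Ripk1, 4.81 for Zbp1 to Ripk3, 1.61 for Zbp1 to Mlkl and 3.68 for Cflar to Casp8. Casp8 to Fadd was 2.51, Ripk1 to Casp8 -0.0119, Birc3 to Birc2 1.67 and Ripk3 to Casp8 -2.85. Counts are by construction not divided by transcript length. With FASTQ-made TPM the ratios that moved by more than 1 SD were Mlkl to Ripk3 (3.37), Ripk3 to Ripk1 (-1.72) and Zbp1 to Ripk3 (5.36). Zbp1 to Mlkl (1.98) and Birc3 to Birc2 (2.61) moved as far, and the cause was not tested. With full-length transcripts those that moved were Ripk3 to Ripk1 (-1.84), Zbp1 to Ripk3 (4.21), Zbp1 to Mlkl (1.02) and Cflar to Casp8 (1.68). By expected counts Zbp1-202 held 26.8% and Cflar-205 88.2%. With FASTQ-made TPM the ranges of Zbp1 and Cflar, and of Ripk1 and Birc2, overlapped, with the order kept in 3 of 3 replicates, and those of Tradd and Ripk3 did not; 8 of the 10 levels moved by more than 1 SD. Without the filter on low counts 143 of 20269 genes had excess variance between replicates (edgeR, adjusted p under 0.05). Of these, 0 were among the 10 genes. DESeq2 size factors, FASTQ-made counts and leaving out any replicate gave 0, where again only a very large excess could be called. Leaving out 1 replicate at a time moved none of the 10 levels by more than 1 SD. A mean of 3 values cannot move that far in this way, so this does not bear on how stable the levels are. No paired analysis was possible because the samples form a single group. Depth limits the transcripts with few reads, such as Ripk3-206, Birc3-205 and Birc3-206.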
